A study of Caenorhabditis elegans with 2 samples.

Results

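The histone genes of Caenorhabditis elegans were examined for ZTF-11 binding in whole second-stage (L2) larvae. They were taken from the Ensembl annotation as the protein-coding genes whose names start with his- and a number, which gave 72 of 19973 nuclear protein-coding genes. The 72 comprised 17 genes for H2A, 17 for H2B, 16 for H3 and 16 for H4. The others were 5 genes for H3.3-like proteins and 1 for the linker histone H1. Classes were read from the RefSeq products, except for his-24, his-39 and his-73, whose products name no single class. The gene his-24 was set as H1 by its name. Alignment of the short proteins of his-39 and his-73 placed his-39 with H2B at 97.01% identity and his-73 with H3 at 97.8%.

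Both samples were chromatin immunoprecipitations from strain OP236, with genotype unc-119(ed3) III; wgIs236, and they formed 1 group of 2 biological replicates with no contrast. The integrated transgene wgIs236 expresses ZTF-11 with GFP and FLAG at its C terminus, and males and females were pooled. The labels give no age beyond the larval stage and name ztf-11 as the antibody target. Because whole larvae were used, binding in few cells and weaker binding in many cells cannot be told apart.

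Histones H2A, H2B, H3 and H4 form the protein core of the nucleosome, and H1 binds the DNA between nucleosomes. Most of their genes are transcribed at DNA replication and lie in clusters of near-identical copies, commonly as divergent pairs that share the sequence between their starts. H3.3 is a variant of H3 that is deposited outside replication, from genes that usually stand alone and have introns. ZTF-11 belongs to the MYT1 family of zinc finger proteins, known as transcriptional repressors in developing neurons.

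The authors' lists held 20223 regions for the pooled replicates, 30000 for each replicate and 210 in a thresholded set, of which 22 were mitochondrial. Each region carries the authors' signal score, set against a control on an unstated scale, and the score was used only to rank and describe regions. The promoter of a gene ran from 1500 bp before its 5′ end to 500 bp after it, and a region counted for every gene whose promoter held its summit. The lists carry no read counts, so read depth is unknown.

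The sequences that follow show where pooled summits lay at his-37, which is in no divergent pair, and in divergent pairs. They also show what pairs with and without a region share. The first 4 are windows of 50 bp to either side of a pooled summit. The other 2 are whole gaps between divergent 5′ ends, 1 with a region and 1 without. The gap without a region occurs 4 times in the genome. Capitals mark TATAAA and TGTCCCNNCAG on either strand.

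his-37, ce11 chrV:9546975-9547075, plus strand: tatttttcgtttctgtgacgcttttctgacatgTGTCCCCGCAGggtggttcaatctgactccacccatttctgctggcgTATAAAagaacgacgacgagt
his-31 and his-32, ce11 chrIV:8334130-8334230, plus strand: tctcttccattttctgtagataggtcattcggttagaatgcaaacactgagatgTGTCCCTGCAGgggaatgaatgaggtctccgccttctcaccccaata
his-61 and his-62, ce11 chrIV:7486376-7486476, plus strand: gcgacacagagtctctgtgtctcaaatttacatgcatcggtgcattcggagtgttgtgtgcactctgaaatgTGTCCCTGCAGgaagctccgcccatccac
his-35 and his-41, ce11 chrV:9545421-9545521, plus strand: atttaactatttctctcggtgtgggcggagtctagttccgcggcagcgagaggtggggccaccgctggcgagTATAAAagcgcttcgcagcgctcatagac
his-4 to his-3, whole gap, ce11 chrV:16040516-16040807, plus strand: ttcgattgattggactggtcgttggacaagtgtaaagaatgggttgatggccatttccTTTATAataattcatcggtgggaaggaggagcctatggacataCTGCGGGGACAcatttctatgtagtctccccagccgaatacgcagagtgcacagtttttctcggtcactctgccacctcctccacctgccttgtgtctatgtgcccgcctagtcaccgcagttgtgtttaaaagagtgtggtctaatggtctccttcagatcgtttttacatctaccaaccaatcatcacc
his-51 to his-52, whole gap, ce11 chrV:8850172-8850463, plus strand: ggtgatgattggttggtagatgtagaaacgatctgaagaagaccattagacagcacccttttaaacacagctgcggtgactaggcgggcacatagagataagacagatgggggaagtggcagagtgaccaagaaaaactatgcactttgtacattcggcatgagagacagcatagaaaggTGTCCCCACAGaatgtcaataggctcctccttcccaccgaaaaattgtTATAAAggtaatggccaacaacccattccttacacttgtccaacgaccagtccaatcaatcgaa

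The H4 gene his-37 and the pair his-67 and his-68, which encode H4 and H2A, carried the strongest histone regions. These 3 genes were the histone genes in the thresholded set, 4.17% of 72, against 0.941% of all protein-coding genes (188 of 19973). They rested on 2 regions, since his-67 and his-68 share the one between them. The region of his-67 and his-68 on chromosome I scored 40.8 in the pooled list, rank 113 of 20223, with 25.6 in replicate 1 and 14.0 in replicate 2. Its summit lay 250 bp upstream of his-67 and 119 bp upstream of his-68, in the promoter also of alg-5, an Argonaute gene. The region of his-37 on chromosome V scored 39.7, rank 123, with 31.7 in replicate 1 and 12.9 in replicate 2, and its summit lay 80 bp upstream of the gene. Both regions scored higher in replicate 1, by 1.83 times at his-67 and his-68 and 2.45 times at his-37. They ranked 106 and 69 among the 30000 regions of replicate 1, and 394 and 550 in replicate 2. The 210 highest regions of replicate 1 alone included all 3 genes, whereas those of replicate 2 alone included 0 histone promoters. That cut differs from the thresholding, which used both replicates, so it does not show what each replicate added. The count of 3 was 0 in the stronger 50% of the thresholded regions.

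Below these, the H4 and H3 pair his-31 and his-32 and the H2A and H2B pair his-61 and his-62 on chromosome IV ranked next. The summit between his-31 and his-32 scored 26.3 in the pooled list, 12.8 in replicate 1 and 15.2 in replicate 2. In replicate 1 more than 1 region held this summit, and 12.8 is the highest score. The replicate 1 region with the nearer summit scored 9.19. The summit between his-61 and his-62 scored 21.8 pooled, 10.5 in replicate 1 and 14.6 in replicate 2. At both pairs replicate 2 was the higher, the reverse of the order at his-37, and both pooled scores were under 32.9, the lowest of the thresholded set. The summits lay between the facing 5′ ends, 197 and 125 bp upstream of his-31 and his-32, and 209 and 119 bp upstream of his-61 and his-62.

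**Figure D1:**
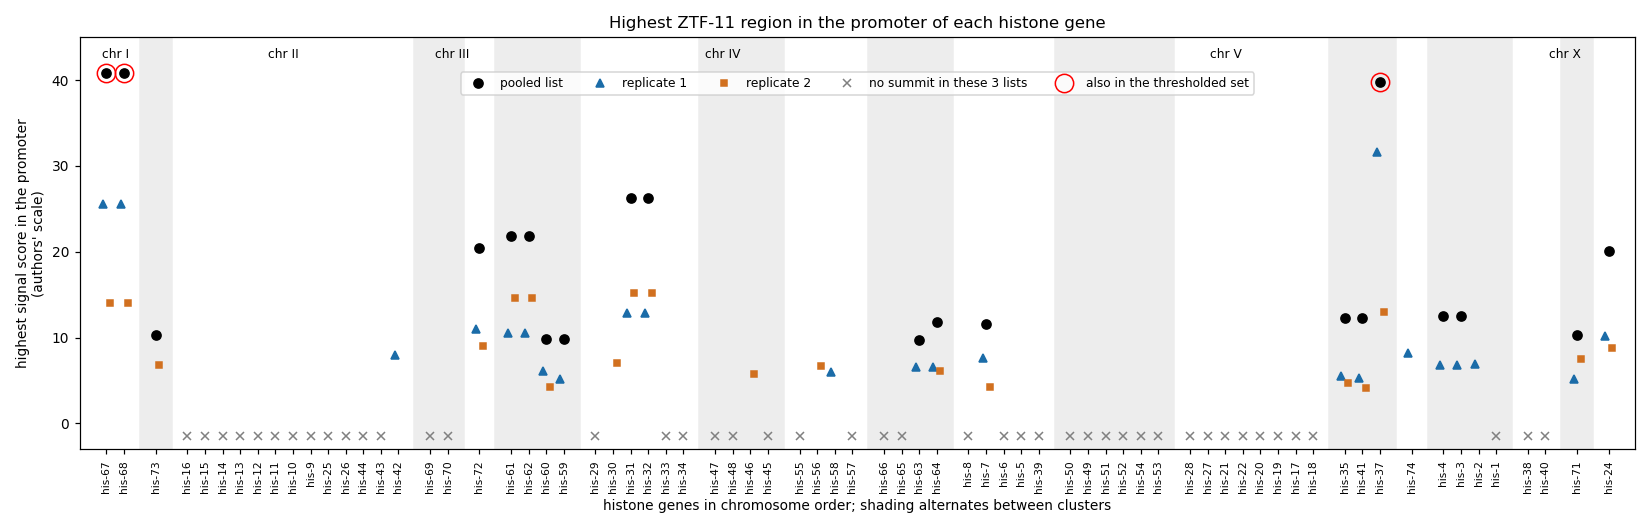
Highest signal score in the promoter of each of the 72 histone genes, in chromosome order (score on the authors' scale on the y axis, genes on the x axis). Circles are pooled scores, triangles replicate 1, squares replicate 2, crosses genes with no summit in these lists, red rings genes also in the thresholded set; 45 of 72 genes are crosses, and the ringed genes are his-67, his-68 and his-37.

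Across the family, a smaller share of histone promoters than of all promoters held a region. A pooled summit lay in 20 of 72 histone promoters (27.8%), against 35.7% of all protein-coding genes. For replicate 1 the share was 31.9% (23 genes) against 48.6%, and for replicate 2 it was 26.4% (19 genes) against 49.0%. Summits of both replicates lay in 15 histone promoters (20.8%) against 27.6%, and all 15 also held a pooled summit. This count does not ask that the summits lie at the same site. At his-71 no replicate region held the pooled summit, and at his-60 and his-64 each pooled summit was inside a region of 1 replicate only. In 45 promoters (62.5%) neither the pooled list nor either replicate had a summit, against 28.7% of all genes.

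Among genes with a pooled summit, the standing of the histone scores depended on how regions were assigned and on which histone promoters were kept. With the promoter as defined, the median of their highest scores was 12.47 for the 20 histone genes and 12.38 for all 7125 genes, which put the histone median at percentile 50.99. In replicate 1 the histone median was 7.57 against 7.13 (percentile 56.6), and in replicate 2 it was 7.56 against 6.09 (percentile 71.4). The pooled percentile was 81.7 with each region given to the nearest 5′ end and 88.5 with a window of 500 bp upstream to 100 bp downstream. It was 90.1 when only histone promoters with at least 90% of 36-mers once were kept, still ranked among all 7125 genes. The 20 pooled genes drew on 17 distinct regions, of which 8 lay in more than 1 histone promoter and 7 also in the promoter of another protein-coding gene.

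The remaining named regions of the core histone genes had lower scores, and several lay inside a region of 1 replicate only. Between his-4 (H2B) and his-3 (H2A) the pooled score was 12.47 and that of replicate 1 was 6.77, while no replicate 2 region held the summit. Between his-35 (H2A) and his-41 (H2B) it was 12.3 pooled, 5.33 in replicate 1 and 4.13 in replicate 2, and the summit was also in the promoters of C50F4.6 and mdf-1. A second region near his-67 and his-68 scored 12.7, inside replicate regions of 5.84 and 7.31, with its summit 457 bp past the start of his-67. Upstream of his-64 (H4) a region scored 11.8 with 6.06 in replicate 2 and none in replicate 1. Upstream of his-7 (H2A) one scored 11.5 with 7.57 and 4.21. Both summits lay past the 3′ end of the divergent partner, 844 bp from his-64 beyond his-63 and 869 bp from his-7 beyond his-8. The regions at his-73 (10.3), at his-59, his-60 and his-61 (9.81) and between his-63 and his-64 (9.68) were each inside a region of 1 replicate only. Ranks of the regions at his-4 and his-3 and below ran from 8164 to 17738 of 20223. In a window of 500 bp upstream to 100 bp downstream, 6 genes had no pooled summit, namely his-72, his-7, his-71, his-73, his-60 and his-59. With each region given to the nearest 5′ end, 8 had none, namely his-31, his-61, his-3, his-35, his-7, his-64, his-73 and his-59.

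**Figure D2:**
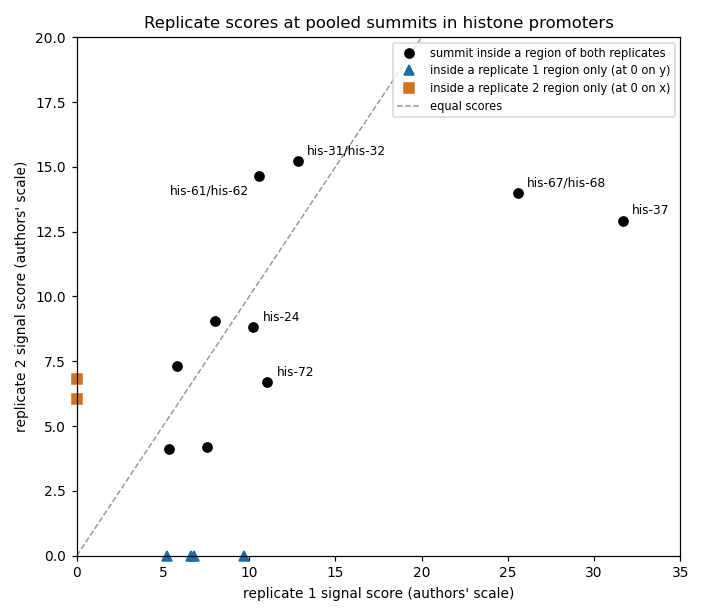
Highest score of the replicate regions that hold each pooled summit in a histone promoter. Replicate 1 is on the x axis and replicate 2 on the y axis (authors' scale). Points on an axis are inside a region of 1 replicate only, and the dashed line marks equal scores. The regions of his-37 and of his-67 and his-68 lie far to the right of the line; the pooled region of his-71 lies inside no replicate region and is not drawn.

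By class, 5 of 17 H2A, 3 of 17 H2B, 4 of 16 H3 and 5 of 16 H4 genes had a pooled summit in the promoter. So had 2 of 5 H3.3-like genes and the single H1 gene. The core classes (29.4% for H2A, 17.6% for H2B, 25% for H3, 31.25% for H4) were below the 35.7% of all protein-coding genes. The median share of promoter 36-mers found once in the genome ranged from 7.43% for H2A to 51.6% for H4, and was 100% for H3.3-like genes. The H4 genes with a summit had the highest median, 26.3, set by his-37, his-67 and his-31, and the H3 genes the lowest, 10.1. All 16 H4 genes encode 1 protein sequence and the 17 H2A genes encode 2, so promoters with and without a region lay before genes for identical proteins. Classes share regions through divergent pairs, so their counts are not independent of each other.

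The linker histone gene his-24 on the X chromosome stands alone. Its pooled region scored 20.1, rank 1011, with 10.2 in replicate 1 and 8.84 in replicate 2, at a summit 406 bp upstream of the 5′ end. Both replicates held it at similar scores, and the window of 50 bp to either side had 30.7% GC, against 46.5% as the median of the 17 histone regions.

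Of the 5 H3.3-like genes, his-72 and his-71 had pooled summits, his-74 a summit in replicate 1 alone (8.17), and the neighbouring genes his-69 and his-70 none in any list. At his-72 the highest region scored 20.5 pooled, 11.0 in replicate 1 and 6.71 in replicate 2. Its summit was 498 bp downstream of the annotated gene start and 388 bp upstream of the start of the shorter transcript, the one whose protein is 93.4% identical to H3. The summit lay 8 bp from the snoRNA gene Y49E10.36 and also in the promoter of Y75B8A.33. Farther upstream of his-72, regions of 16.1 and 10.2 lay nearer to the start of rpt-6, a proteasome subunit gene. With a promoter of 1000 bp upstream to 200 bp downstream, the highest score of his-72 was 10.2. At his-71 the pooled region scored 10.3, and no replicate region held its summit, although replicate summits elsewhere in the promoter scored 5.16 and 7.56.

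The genes fell into 19 groups when those within 5000 bp of each other were joined, 5 of them single genes. Of the 5 genes that stand alone (his-24, his-71, his-72, his-73 and his-74) 4 had a pooled summit. The share was 16 of 67 (23.9%) in clusters and 35.7% of all protein-coding genes. The median share of promoter 36-mers found once was 100% for the genes standing alone and 39.1% for those in clusters. At his-71 no replicate region held the summit, and that of his-73 was nearer to W09H1.4, 653 bp from its start. The 13 genes of the chromosome II cluster from his-16 to his-42 had 0 pooled summits. They had only 1 replicate 1 summit, at his-42 (8.0). On chromosome V, the 6 genes from his-50 to his-53 and the 8 from his-28 to his-18 had no summit in any list. In contrast, every gene had a pooled summit in the pair his-67 and his-68, in the 4 genes of the his-61 cluster and in the 3 genes his-35, his-41 and his-37. In the his-61 cluster, his-60 and his-59 had only the region of 9.81 (rank 17121), inside a region of replicate 1 alone. Its summit lay 396 bp past the start of his-60, a gene of 312 bp. In clusters with no pooled summit, replicate 2 alone had summits at his-46 (5.78) and his-56 (6.66) and replicate 1 alone at his-58 (5.95). In clusters where other genes had one, replicate 2 alone had a summit at his-30 (7.05) and replicate 1 alone at his-2 (6.91).

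These clusters differ in how much of their sequence occurs once in the genome. Uniqueness was measured as the share of the 36-base words of a promoter found once in the genome on either strand. Its median was 40.9% for histone promoters and 100% for all genes, and 60 of 72 histone promoters were under 90%, against 14.6% of all genes. The median was 1.83% in the chromosome II cluster and 0% in both chromosome V clusters without summits. It was 93.9% at his-67 and his-68 and 98.6% in the cluster of his-37. The order had exceptions: his-69 and his-70 had no summit at 94.7%, nor had his-38 (H4) and his-40 (H3) at 84.0%.

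Among genes with at least 50% of the promoter unique, the histone share with a pooled summit was above that of all genes. At 90% and over, 9 of 12 histone genes (75.0%) had a pooled summit against 38.4% of all genes, and from 50 to under 90% the counts were 10 of 19 (52.6%) against 23.9%. Under 50% they were 1 of 41 (2.44%) against 3.67%, so few genes of either kind had a region where most of the promoter is repeated. In these shares, divergent partners with a common region, such as his-67 and his-68, each count. The 9 genes at 90% and over drew on 10 distinct regions, 3 of them at his-72. With each region given to the nearest 5′ end, the histone genes with a pooled summit fell from 20 to 12, and shares by uniqueness were not counted that way. The bounds of 50 and 99% were chosen after the values were seen. Repeated sequence moves with the absence of regions, and the sources used here do not say how reads matching several places were handled. The part of repeats in the 45 promoters without a summit was not tested.

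**Figure D3:**
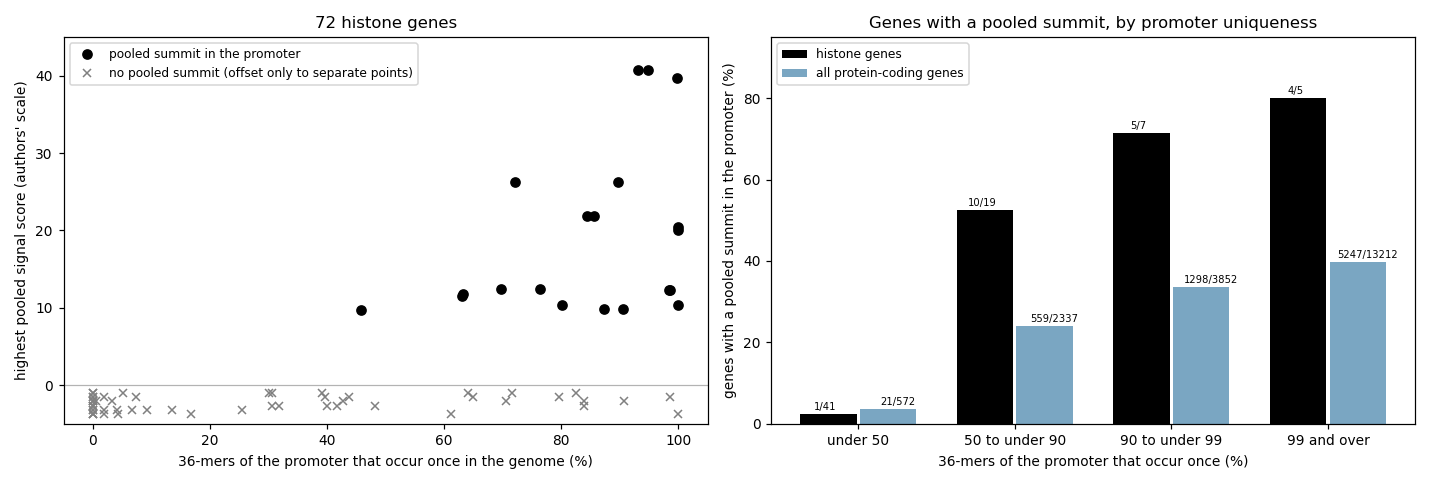
Left, the highest pooled score of each histone gene against the share of promoter 36-mers that occur once in the genome; crosses are genes without a pooled summit. Right, the share of genes with a pooled summit by that measure, for histone genes (black) and all protein-coding genes (blue), with counts above the bars; for histone genes it is 2.44% under 50, 52.6% from 50 to under 90, 71.4% from 90 to under 99 and 80% above.

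The same split appeared at the level of promoter copies. Of the 31 divergent histone pairs, 16 were H2A with H2B, 14 were H3 with H4, and 1 was his-67 with his-68. Their gaps were 227 to 368 bp long, with a median of 258 bp. In 17 pairs the gap sequence occurs more than once, up to 4 times, and 0 of these had a pooled summit between the 5′ ends. In the 14 pairs with a single-copy gap there were 6. They were his-67 and his-68, his-31 and his-32, his-61 and his-62, his-4 and his-3, his-35 and his-41, and his-63 and his-64. Single-copy refers to the whole gap, and promoters at such gaps can still be largely repeated. The share of 36-mers found once was 4.17% at his-45, without a summit, and 45.9% at his-63, with one. Further, 22 histone genes share the sequence of their 300 bp promoter with another histone gene, and 0 of these had a pooled summit. The gap of his-4 and his-3 and that of his-51 and his-52, both printed in full, are each 292 bp long. They are 88.7% identical when 1 is reversed, and only the first has a region, inside a region of replicate 1 alone. The second gap occurs 4 times in the genome, and the promoters of his-51 and his-52 have 0% of 36-mers found once. That gap therefore cannot be called unbound.

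At 6 divergent pairs a pooled summit sat between the starts, and some of the strongest histone regions share a word. Other pairs had a pooled region only outside the gap, as his-60 with his-59 and his-8 with his-7. The windows printed for his-37, for his-31 and his-32 and for his-61 and his-62 have in common, as their longest word with at most 1 variable base, ATGTGTCCCNGCAGG. On either strand it lay in 8 of 72 histone promoters of 300 bp (11.1%) and in 2 of the 19901 others (0.0100%). The 8 genes were his-37, his-31, his-32, his-61 and his-62, from which it was read, and his-67, his-68 and his-24, which were not used to find it. All 8 had pooled scores of 20.1 or more, a bound that is the score of his-24 itself, and among histone genes with such scores his-72 (20.5) lacked the word. For the genes from which the word was read, high scores are built in, since their regions were among the strongest. That leaves only the region of his-67 and his-68 and that of his-24, so a link between word and score was not tested. At his-24 the word was more than 300 bp from the summit and outside the region. It was within 50 bp of the summit at 4 of the 17 histone regions and at 5 of all 20201 nuclear pooled regions. Over the nuclear genome 6 of its 23 sites were inside a pooled region. Among divergent gaps it was in 3 of the 6 single-copy gaps with a pooled summit and 0 of the other 25, a split that is partly built in, since the word was read from bound sequences.

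A looser form, TGTCCCNNCAG, is the inner part of that word with the next base also freed, a change made after copies in other gaps had been seen. It was in 46 of 72 histone promoters (63.9%) and in 32 of the 19901 others (0.161%). Its centre lay 12 bp from the summit at his-37, 9 bp at his-31 and his-32, 27 bp at his-61 and his-62 and 1 bp at his-4 and his-3. At his-67 and his-68 copies lay 14 and 23 bp away. Among single-copy gaps the looser form did not separate those with a pooled summit (4 of 6) from those without (4 of 8). It was also in 14 of 17 multicopy gaps. Those had no pooled summit, but they cannot be called unbound, since the handling of reads matching several places is unknown. The gaps of his-35 and his-41 and of his-63 and his-64 had a region without the looser form. Of its 393 sites in the nuclear genome, 40 (10.2%) were inside a pooled region, and pooled regions covered 7.41% of the genome.

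**Figure D4:**
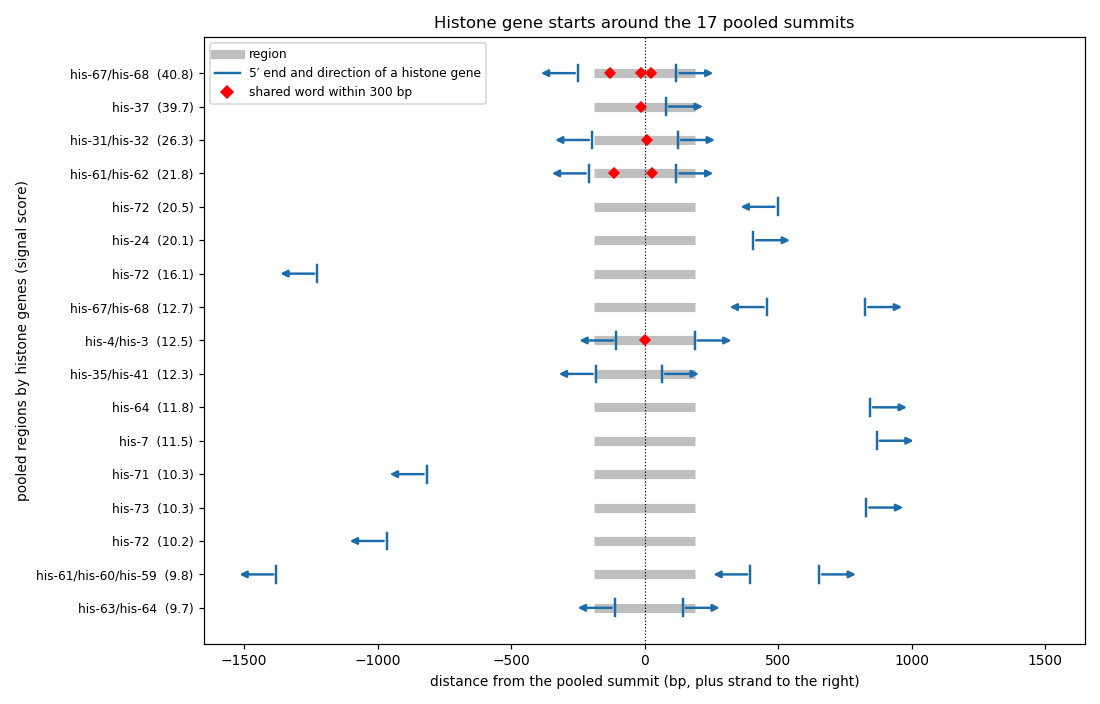
The 17 pooled regions with a summit in a histone promoter, by falling score (in brackets, authors' scale), aligned at the summit, with distance in bp on the x axis. Grey bars are regions, blue ticks and arrows the 5′ ends and directions of histone genes, red diamonds the word TGTCCCNNCAG; at the top 4 regions a diamond lies within 27 bp of the summit.

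Other words were counted in the 300 bp promoters, on either strand. AAAGTT, the core sequence of MYT1-type zinc fingers, was in 8.33% of histone promoters against 43.8% of all promoters, and at 1 of the 17 histone summits against 20.1% of all nuclear pooled summits. TATAAA, the TATA box core, was in 65.3% against 37.9%, and GAGAGA was in 45.8% against 21.8%. GCGCGA was in 1.39% against 4.39%. Histone promoters had a median GC content of 48% against 34.3% for all, and the part of base composition in these shares was not tested. Copied promoters are counted repeatedly, since the 72 genes have 61 distinct promoter sequences.

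Genes for proteins that bind, place or modify histones were read in the same way. Of 39 such genes, 20 had a pooled summit, against 35.7% of all protein-coding genes, and 0 a thresholded one, against 0.941%. Their median pooled score was 14.9, against 12.38 for all genes with a pooled summit. The highest was lin-53 (29.1), a histone-binding chaperone, with 17.7 in replicate 1 and 8.93 in replicate 2. It was followed by the acetyltransferase gene cbp-1 (25.6) and the H3K27 methyltransferase gene mes-2 (23.8). The H2A.Z gene htz-1 (22.9) had 5.30 in replicate 1 and 16.2 in replicate 2. Next were the methyltransferase gene met-1 (22.1), the acetyltransferase gene hat-1 (20.8, replicate 1 only), the linker histone gene hil-4 (20.02) and emb-5 (16.6), the Spt6 homologue. Of the 8 hil linker histone genes 5 had a pooled summit, against the same 35.7%, with a median score of 10.9. The gene for the stem-loop binding protein CDL-1, which acts on the 3′ ends of histone transcripts, had one of 15.2, with a summit in replicate 1 only.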

How the data were processed

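Regions were called by the authors on ce11 alignments of each replicate and of both pooled, with a control, and a thresholded set was derived by the irreproducible discovery rate (IDR), per the deposited text notes. No aligner, caller or threshold is named in these sources. As score, the deposited lists give the authors' signal value per region, without read counts, so depth is unknown. The deposited summit offset placed each summit. Lists on ce10 were not used.

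The labels number both samples as biological replicates, separate biosamples of 1 group. The members, gene lists and words were chosen with earlier results of these data known, so no test was made, and counts and medians stand beside those of all 19973 nuclear protein-coding genes. Genes came from Ensembl release 115 (WBcel235, the coordinates of ce11), printed names and products from RefSeq by WormBase identifier, and sequences from the RefSeq genome. Ensembl names collapse some copies. Clusters joined genes within 5000 bp, and divergent pairs had 5′ ends under 2000 bp apart. Uniqueness used 36-mers and 50-mers. Word promoters reached from 250 bp upstream to 50 bp downstream. Proteins of the first transcript were aligned with free end gaps.

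Named were members in the thresholded set, genes of the 12 highest pooled regions, the highest region of each cluster, H1 and H3.3-like genes and the 8 highest related genes. Members seen in 1 replicate only were added after the values were seen. So were C50F4.6, mdf-1, alg-5, rpt-6, Y75B8A.33, Y49E10.36, W09H1.4, B0035.21, F54E12.2 and W05B10.3, which share or lie near the regions named. Alternatives changed the window, the assignment, the uniqueness and the list. Tools were Biopython 1.88, matplotlib 3.10.9, pandas 2.3.3, numpy 2.4.6 and Python 3.11.15, and the assignment, shared-word and uniqueness steps were tested on simulated data.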

Additional observations from a re-analysis of the deposited data

How the results depend on the processing

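Counts depend on how a region is given to a gene. With each region given to the gene of the nearest 5′ end, 12 histone genes had a pooled summit and 7 had summits of both replicates, and the histone median moved to percentile 81.7. Among histone promoters with at least 90% of 36-mers once, 9 genes had a pooled summit, 9 had both replicates and 10 regions were distinct. The percentile of their median among all genes with a pooled summit was 90.1. A window of 500 bp upstream to 100 bp downstream left 8 distinct regions and percentile 88.5. The thresholded count of 3 was 0 in the stronger 50% of that set. With each replicate's list alone, it ranged from 0 to 3, the pooled count from 19 to 23, distinct regions from 22 to 25 and the percentile from 56.6 to 71.4. Of 80 single-gene scores under 4 settings, 65 had a value, of which 61 did not move. The 15 without a summit were his-60 with a window of 1000 bp upstream to 200 bp downstream, and the 6 and 8 genes named in the results for the narrower window and the nearest 5′ end. The scores that moved were his-72 (10.2, window of 1000 bp upstream to 200 bp downstream), his-64 (9.68, window of 500 bp upstream to 100 bp downstream), his-67 (12.7, nearest 5′ end) and his-63 (11.8, overlap of the region). The causes were not tested. No paired analysis was possible because there was 1 group. Unknown depth limits every score.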
